A study of Mus musculus with 2 samples.

Results

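Complement is a set of plasma and cell-surface proteins that tag microbes, immune complexes and dying cells. The members described here are 9 of its genes, out of 37008 gene names on the array: the C1q chains C1qa, C1qb and C1qc, the components C2, C3, C4b and Cfb, and the receptors Cr2 and C3ar1. They were taken by gene name among the non-control spots of both scanner files, which gave 15 probes, and every probe is reported. Total RNA of lymph node cells sorted as CD45-negative, the gate used for stroma, was hybridized to 2 one-color Cy3 Agilent mouse arrays. The array for the tumor-draining group held RNA from draining nodes of female mice labelled C57BL/6, 2 weeks after 4T1 mammary carcinoma cells had been injected under the skin at the mammary gland. The array for the normal group held RNA from lymph nodes of female mice without a tumor, sorted in the same way. 4T1 is known as a line from BALB/c mice, so tumor and labelled host differ in strain, and the sources used here do not give the number of mice behind each array. With 1 array in each group no test was possible and no p-value is given. A gene is called higher or lower by size alone, at 2-fold, which is 1 on the log2 scale.

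In the classical pathway C1q, built from its A, B and C chains, binds antibody on a surface, and the proteases C1r and C1s bound to it then cut C4 and C2. The C4 and C2 fragments form an enzyme that cleaves C3, the central component, while the alternative pathway builds a second C3-cleaving enzyme from C3 and factor B, the product of Cfb. In tissue, C1q is made mainly by macrophages and dendritic cells, whereas C2, C3, C4 and factor B are made by hepatocytes and also by fibroblasts, endothelial cells and myeloid cells. Cr2 encodes complement receptors 1 and 2 of the mouse, which bind C3 fragments on B cells and follicular dendritic cells, and C3ar1 encodes the receptor for C3a, a small fragment released from C3.

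The members fell into 3 patterns. C2, C3, C4b and Cfb were lower on the tumor-draining array, Cr2 was higher, and the C1q chains were within 2-fold at signals not far above background. C3ar1 was not well above background on either array. Of the 8 members above background on both arrays, 4 were lower by 2-fold or more and 1 higher by 2-fold or more. Over all 22152 genes above background on both arrays, 15.9% were lower by 2-fold or more and 11.1% higher by 2-fold or more, with a median log2 difference of 0.12. In RNA from bulk samples such as these, fewer cells of a type and less RNA per cell cannot be told apart.

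The probes are 60-base oligonucleotides, and the values below are the brightness of spots that carry them. A few are shown because the results turn on them: the probes of 2 C1q chains whose signals lay near background, and probes of C3, C4b and Cfb, for which a second probe gave a check. They are printed in lower case, 5′ to 3′, in the sense of the transcript as the array files give them, with no base singled out by capitals.
C1qa: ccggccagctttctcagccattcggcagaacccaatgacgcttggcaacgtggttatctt
C1qb: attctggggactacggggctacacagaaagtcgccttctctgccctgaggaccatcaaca
C3, dimmer probe: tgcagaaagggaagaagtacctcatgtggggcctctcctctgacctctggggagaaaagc
C4b, probe shared with C4a: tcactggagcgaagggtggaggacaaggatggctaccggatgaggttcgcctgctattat
Cfb, brighter probe: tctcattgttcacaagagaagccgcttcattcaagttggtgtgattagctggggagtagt
Cfb, dimmer probe: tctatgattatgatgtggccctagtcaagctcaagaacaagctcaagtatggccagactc
On the mm9 build that the array files use, all on the minus strand, the C1qa probe lies at chr4:136452409-136452468 and the C1qb probe at chr4:136436578-136436637. The C3 probe lies at chr17:57343678-57343737 and the C4b probe at chr17:34866361-34866420. The brighter Cfb probe spans chr17:34993502-34993858, which is 357 bases for a 60-base probe, so its sequence is interrupted in the genome. The dimmer Cfb probe lies at chr17:34994617-34994676. The array files do not state exon or UTR.

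C2, the component cut by C1s to form part of the C3-cleaving enzyme, had a processed signal of 2559 on the tumor-draining array and 24561 on the normal array. Its log2 difference, tumor-draining minus normal after scaling each array to its 75th percentile, was -3.20 ± 0.20 (± here and below is the error of the difference from the scanner software's spot errors, and does not cover differences between mice). That is 9.20-fold lower, and 0.605% of genes above background on both arrays had a difference at least as low. C2 had 1 probe, at chr17:34999575-34999634, so no second probe checks the value.

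Cfb encodes factor B, the protease subunit of the alternative pathway enzyme, and had 2 probes. The brighter one had a signal of 1564 on the tumor-draining array and 9467 on the normal array, 5.80-fold lower with a log2 difference of -2.54 ± 0.20. The dimmer one had 322 on the tumor-draining array and 2376 on the normal array, with a log2 difference of -2.82 ± 0.20. Both Cfb probes were thus lower on the tumor-draining array, and the SD of 0.20 between them was below the median SD of 0.27 between probes of a gene over 7599 genes with at least 2 probes above background.

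C4b encodes complement C4, the first substrate of C1s, and also had 2 probes. The brighter probe, at chr17:34865367-34865426, lists RefSeq accessions of C4b alone and had a signal of 8581 on the tumor-draining array and 43134 on the normal array. Its log2 difference was -2.27 ± 0.20, or 4.82-fold lower. The second probe, whose sequence is given above, lists accessions of both C4b and its near-identical neighbor C4a, and had 1349 on the tumor-draining array and 6496 on the normal array, a log2 difference of -2.21 ± 0.20. The probe specific to C4b and the shared probe therefore gave nearly the same difference. The probe named for C4a lists C4b accessions as well, so its signal, 7.99-fold lower on the tumor-draining array, cannot be assigned to C4a alone.

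C3, whose cleavage is the step on which all complement pathways converge, gave the smallest difference of the 4 components and the largest gap between its probes. The brighter probe, at chr17:57343416-57343475, had a signal of 56085 on the tumor-draining array and 172022 on the normal array, 2.94-fold lower with a log2 difference of -1.56 ± 0.20. The dimmer probe had 26856 on the tumor-draining array and 127036 on the normal array, 4.53-fold lower with a log2 difference of -2.18 ± 0.20. Both were lower, with an SD of 0.44 between them, which is above the median SD between probes of a gene. No non-control spot was marked as saturated on either array. The median difference over the 4 components was -2.40, against 0.12 over all genes.

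**Figure D1:**
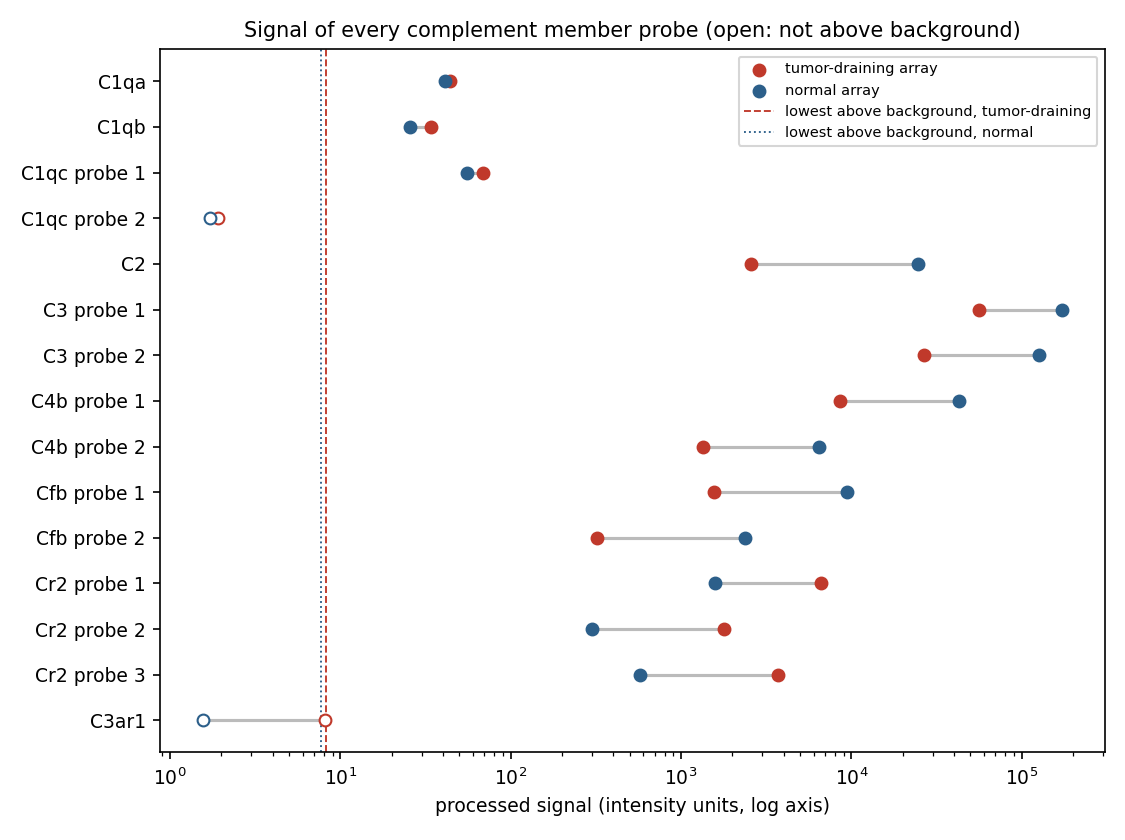
Processed signal (intensity units, log axis) of each of the 15 member probes on the tumor-draining array and the normal array, 1 array each, with a line joining the 2 values of a probe. Dashed and dotted lines mark the lowest signal of a probe well above background (8.27 on the tumor-draining array and 7.72 on the normal array), and open points are not well above background. The component probes lie lower and the Cr2 probes higher on the tumor-draining array, while the 3 C1q probes above background have nearly equal signals of 25.8 to 68.9.

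The C1q chains differed little between the arrays and were dim on both. C1qa, the A chain, had a signal of 44.0 on the tumor-draining array and 41.2 on the normal array, a log2 difference of 0.16 ± 0.22. C1qb, the B chain, had 34.1 on the tumor-draining array and 25.8 on the normal array, a log2 difference of 0.47 ± 0.23. C1qc, the C chain, had 68.9 on the tumor-draining array and 55.1 on the normal array, a log2 difference of 0.39 ± 0.21, on its probe at chr4:136445766-136445825. All 3 chains were slightly brighter on the tumor-draining array, and none reached 2-fold. A second C1qc probe, designed on an Ensembl transcript, had 1.90 on the tumor-draining array and 1.71 on the normal array and was not well above background on either.

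These C1q signals lay near the lower end of what the arrays could measure. The lowest signal of a probe well above background was 8.27 on the tumor-draining array and 7.72 on the normal array, and the 308 negative control spots had a median of 1.81 on the tumor-draining array and 1.68 on the normal array. Probes printed 10 times with mean signals between 20 and 100 had a median SD of 0.25 in their log2 difference over 7 such probes, and the highest was 0.39. The C1qa difference was below that median and those of C1qb and C1qc above it. Among the 6604 genes with a signal under 100 on both arrays, 690 were lower by 2-fold or more and 662 higher.

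Markers of macrophages and dendritic cells, known sources of C1q in tissue, went in no single direction. Of 14 macrophage markers, 12 were above background on both arrays, 4 of them lower by 2-fold or more and 0 higher by 2-fold or more, with a median log2 difference of -0.41 and a summed signal of 13510 on the tumor-draining array and 17770 on the normal array. With spike-in scaling 3 were lower and 5 higher, beside 8.5% of all genes lower and 43.9% higher. The highest were Adgre1 (0.97), an adhesion receptor, and Cd68 (0.82), a lysosomal glycoprotein, and the lowest were Marco (-3.36), a scavenger receptor, and Mrc1 (-2.65), the mannose receptor. Marco alone had 643 on the tumor-draining array and 6909 on the normal array, a larger gap than that between the summed signals. Fcgr1, a high-affinity Fc receptor, was not well above background on either array, and Cd163 was above it on the tumor-draining array only. Of 7 measured dendritic cell markers 1 was lower by 2-fold or more and 3 higher, with a median of 0.05 and a summed signal of 90830 on the tumor-draining array and 51750 on the normal array. Most of that sum came from Ccr7 (52409 on the tumor-draining array and 11915 on the normal array) and Siglech (37544 and 39238). The gap between the Ccr7 signals is larger than that between the sums. The Ccr7 difference of 2.20 lay inside the ranges of the B cell (0.76 to 2.94) and T cell (0.81 to 2.78) markers. Whether Ccr7 marks dendritic cells here was not tested. Flt3, also among the 3 higher, had probes from 0.385 to 1.96. The part of either cell type in the C1q values was not tested.

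The C1q chains and the 4 components differed from each other on the same pair of arrays. The median difference was 0.39 for the chains and -2.40 for the components, a gap of 2.79 that no scaling by 1 factor per array can alter. Across the settings that gave a value for both groups the gap stayed between 2.58 and 3.02. This gap shows unequal differences and does not show that C1q expression was unchanged.

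**Figure D2:**
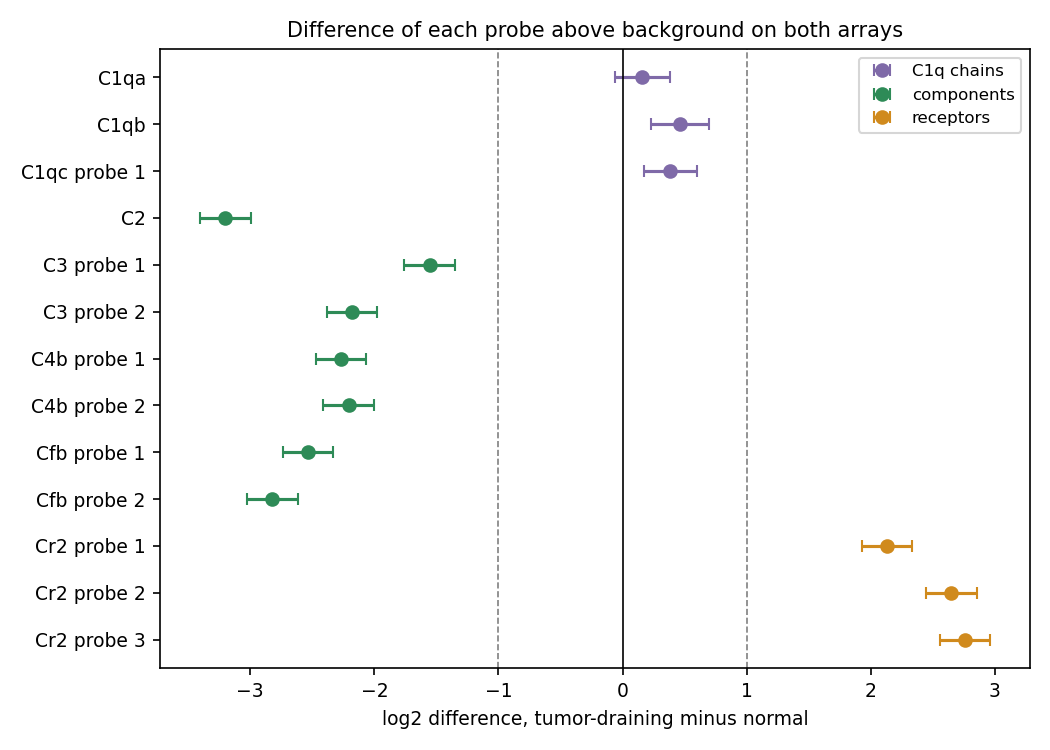
Log2 difference, tumor-draining minus normal, of the 13 member probes above background on both arrays, with bars for the error from the scanner software's spot errors and dashed lines at 2-fold. The component probes run from -3.20 to -1.56, the C1q probes from 0.16 to 0.47 and the Cr2 probes from 2.13 to 2.76.

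Cr2 was higher on the tumor-draining array on each of its 3 probes. The brightest, at chr1:196965532-196965591, had a signal of 6603 on the tumor-draining array and 1575 on the normal array, 4.38-fold higher, with a log2 difference of 2.13 ± 0.20. The other two had 3721 and 1796 on the tumor-draining array, against 574 and 299 on the normal array, with log2 differences of 2.76 and 2.65. The brightest probe thus gave the smallest difference. All 3 probes were designed on 1 RefSeq record, and they do not separate the receptor 1 and receptor 2 forms that the mouse makes from this gene.

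Markers of the 2 cell types known to carry Cr2 differed in opposite directions. Of 9 B cell markers 7 were higher by 2-fold or more and 0 lower, with a median log2 difference of 1.80 and a summed signal of 63200 on the tumor-draining array and 26850 on the normal array. They ran from Cd79b (0.76) and Blk (0.86), parts of B cell receptor signaling, to Cd22 (2.55), an inhibitory lectin, and Bank1 (2.94), a scaffold protein. Of 7 follicular dendritic cell markers 5 were lower by 2-fold or more and 0 higher, with a median of -1.77 and a summed signal of 33370 on the tumor-draining array and 127200 on the normal array. Most of that sum came from Mfge8 (28266 on the tumor-draining array and 102127 on the normal array). The 7 markers ran from Enpp2 (-2.38, with its probes from -2.38 to 0.54), the enzyme autotaxin, and Madcam1 (-2.08), an addressin, to Sox9 (-0.35), a transcription factor, and Tnfsf11 (0.29), the RANK ligand. How specific these genes are to follicular dendritic cells was not tested. T cell markers were higher as well (9 of 10, median 2.31), as were all 8 pan-leukocyte genes (median 1.89). The Cr2 difference of 2.13 lay inside the range of the B cell markers (0.76 to 2.94) and of the T cell markers (0.81 to 2.78), and above the highest follicular dendritic cell marker. The part of either cell type in the Cr2 value was not tested.

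C3ar1, the C3a receptor of myeloid cells, had a signal of 8.11 on the tumor-draining array and 1.57 on the normal array. Neither was marked as well above background, the first lying just under the lowest signal so marked on that array (8.27), so no fold is given.

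Markers of the sorted cells moved with the components. Of 13 fibroblastic reticular cell markers 12 were lower by 2-fold or more, with a median of -1.95 and a range of -3.20 to -0.85, and 7 were with spike-in scaling. The lowest were Ccl19 (-3.20), a chemokine for T cells and dendritic cells, and Il7 (-3.06), which keeps naive T cells alive. The highest were Pdgfra (-1.03), a growth factor receptor, and Col3a1 (-0.85, with its probes from -2.42 to -0.85), a fibrillar collagen. All 10 blood endothelial markers (median -2.98), all 5 measured lymphatic endothelial markers (median -2.35) and 7 of 8 mural cell markers (median -2.81) were lower by 2-fold or more too. Among the markers counted as lower, probes went both ways for the fibroblastic reticular marker Col1a1 (-2.06 to 0.86). They also did for the mural marker Des (-3.36 to 0.42). The components' differences of -3.20 to -1.56 lay inside the range of the fibroblastic reticular markers, with C2 at its lower edge. They also lay inside the ranges of the blood endothelial (-3.54 to -1.17), mural (-3.36 to -0.99) and macrophage (-3.36 to 0.97) markers. These ranges do not single out 1 cell type. Pdpn, the glycoprotein that marks fibroblastic reticular cells, was 3.89-fold lower and Pecam1, the endothelial antigen CD31, 2.25-fold lower. Ptprc, which encodes the CD45 antigen that the sort was set to leave out, had a signal of 17432 on the tumor-draining array and 3702 on the normal array, and all 8 pan-leukocyte genes were higher by 2-fold or more. The part of these shifts in the complement values was not tested.

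**Figure D3:**
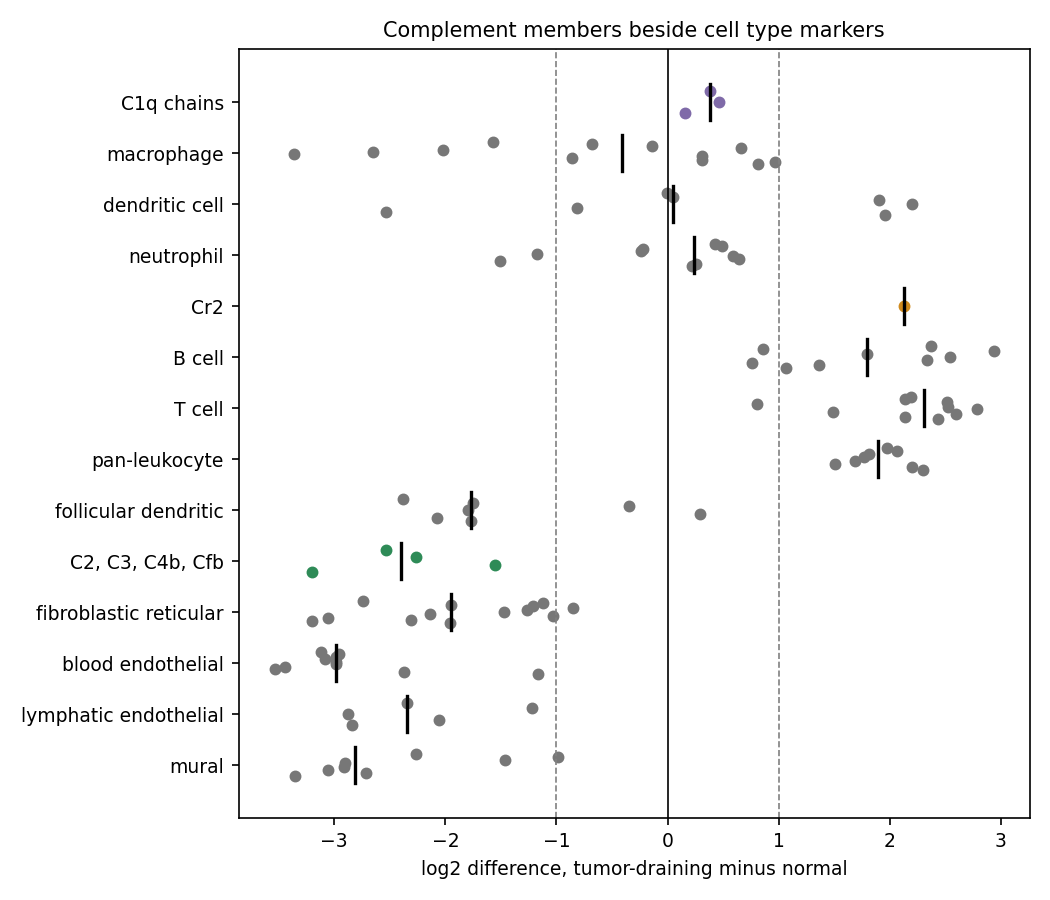
Log2 difference, tumor-draining minus normal, of each gene above background on both arrays (points) and the median of each list (black bars), with dashed lines at 2-fold. The 4 components (median -2.40) lie beside the stromal lists (medians -1.95 to -2.98), and Cr2 (2.13) beside the markers of B cells (median 1.80) and of T cells (2.31) and the pan-leukocyte genes (1.89). The C1q chains have a higher median (0.39) than the macrophage (-0.41), dendritic cell (0.05) and neutrophil (0.24) markers.

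Beyond the 9 members, 46 other complement genes were listed by role, of which 45 had a probe and 33 were above background on both arrays. Of these 33, 17 were lower by 2-fold or more and 2 higher by 2-fold or more on the tumor-draining array, with a median log2 difference of -1.14, against 15.9% lower, 11.1% higher and a median of 0.12 over all genes. The 17 include C4a, whose probe also lists accessions of the member C4b, and C1s2, whose probe also lists a C1s1 accession. Neither can be taken as a separate gene in that count. The list was written with earlier results of these arrays known.

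The proteases that work with C1q were lower although the C1q chains were within 2-fold. C1ra, a C1r gene, had 3284 on the tumor-draining array and 14328 on the normal array (-2.06), and its copy C1rb had 248 on the tumor-draining array and 1915 on the normal array (-2.89). C1s1, a C1s gene, had 3228 on the tumor-draining array and 17194 on the normal array (-2.35). The probe for C1s2 (-2.16) also lists a C1s1 accession, so these copies cannot be told apart there, and C1ra and C1rb may share hybridization as well. All 4 of these probes were lower by 2-fold or more, also with spike-in scaling.

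Lectin pathway starters, which bind sugars in place of antibody, were mostly dim or little different. Colec11, a collectin, had 45.2 on the tumor-draining array and 249 on the normal array (-2.40). Masp1 and Masp2, the proteases of that pathway, had differences of 0.05 and 0.43, and the scavenger collectin Colec12 had one of 0.20. Mbl1, Mbl2, Fcna and Colec10 were not well above background on either array, and Fcnb, a ficolin of myeloid cells, was above it on the normal array only, and on the tumor-draining array it was lower by at least 2.24-fold. C1rl, a relative of C1r, differed by -0.03.

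Of the alternative pathway, Cfd, the protease factor D, which adipocytes also make as adipsin, had 233 on the tumor-draining array and 535 on the normal array, 2.20-fold lower, and was within 2-fold with normexp (-0.99) and with spike-in scaling (-0.36). Cfp, properdin, the stabilizer made by leukocytes, had differences of 0.23 on both of its probes. Of the terminal components that form the membrane pore, C7 (-1.21) and C8g (-1.43) were lower, at signals of 45.4 and 43.0 on the tumor-draining array, against 109 and 121 on the normal array. Both were within 2-fold with normexp (-0.62 for C7 and -0.78 for C8g) and with spike-in scaling (-0.43 for C7 and -0.66 for C8g). Hc, the mouse gene for C5, had a difference of 0.24, and C6, C8a, C8b and C9 were not well above background on either array.

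The 3 soluble inhibitors above background on both arrays were lower. Vtn, vitronectin, which blocks the pore, had 435 on the tumor-draining array and 4432 on the normal array, 9.77-fold lower. Serping1, the C1 inhibitor, had 6532 on the tumor-draining array and 33531 on the normal array, 4.92-fold lower. Clu, clusterin, which also binds the terminal components, was 3.33-fold lower, or -0.96 on the log2 scale with spike-in scaling. Cfi, the protease factor I, was above background on the normal array only, and on the tumor-draining array it was lower by at least 4.11-fold. C4bp, which encodes a C4-binding protein chain, was not well above background on either array.

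Membrane-bound inhibitors, which protect host cells, were split. Cd59a (-1.65) and Cd59b (-1.45), near copies that block pore formation, were lower, as were Csmd1 (-2.93), a large CUB and sushi domain protein, and Susd4 (-1.69), a sushi domain protein. With spike-in scaling Cd59a (-0.88), Cd59b (-0.68) and Susd4 (-0.92) were within 2-fold, and Cd59b, with a signal of 16.3 on the tumor-draining array and 46.5 on the normal array, was at -0.36 with normexp. Csmd1 had 24.1 on the tumor-draining array and 192 on the normal array, and was at -1.53 with normexp. Cd55, the decay accelerating factor, had a difference of -0.92, its copy Cd55b -0.34 and Cd46, a cofactor for factor I, 0.10. Cr1l, the mouse inhibitor Crry, had one of -0.47, with its probes above background from -1.21 to -0.47.

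Among receptors other than the members, Itgb2, the shared beta chain of leukocyte integrins including complement receptors 3 and 4, had 1351 on the tumor-draining array and 276 on the normal array, a difference of 2.35. Its partners Itgam (-0.66, with a second probe at 0.06) and Itgax (0.55), the alpha chains of receptors 3 and 4, were within 2-fold. C5ar1, the C5a receptor, had 23.6 on the tumor-draining array and 11.7 on the normal array, a difference of 1.07, which was 0.27 with normexp background correction and 0.98 after loess. C5ar2, the second C5a receptor, had a difference of -0.38. Cd93, once described as a C1q receptor and found on endothelium, was 3.50-fold lower, and C1qbp, a mainly mitochondrial C1q-binding protein, had a difference of 0.34. Vsig4, a macrophage receptor for C3 fragments, was not well above background on either array.

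**Figure D4:**
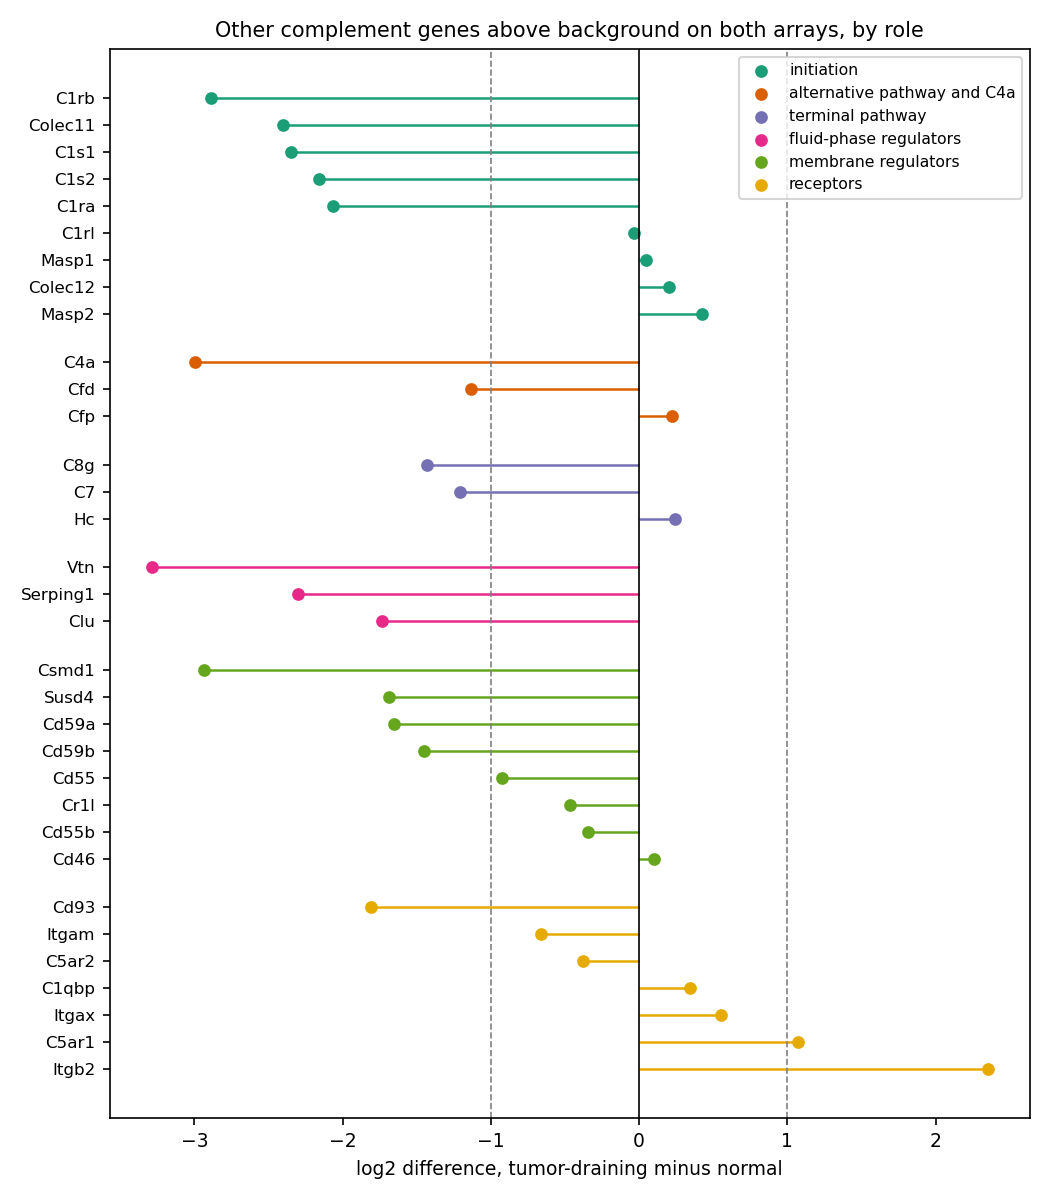
Log2 difference, tumor-draining minus normal, of the 33 other complement genes above background on both arrays, sorted within their role, with dashed lines at 2-fold. The classical proteases and soluble inhibitors reach -2.06 to -3.29 for C1ra, C1rb, C1s1, C1s2, Serping1 and Vtn, while Itgb2 (2.35) and C5ar1 (1.07) lie above 2-fold.

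The size of the member differences depended on how the signals were scaled. The 10 spike-in probes gave a median difference of -0.77, and scaling to it raised every difference by that amount. C3 was then within 2-fold at -0.78 and C1qb (1.24) and C1qc (1.16) were higher by 2-fold or more, so that 3 members were lower and 3 higher, beside 8.5% of all genes lower and 43.9% higher. Calls to the higher side made up 83.8% of all calls under that scaling and 41.0% with the 75th percentile. C2, C4b and Cfb stayed lower by 2-fold or more and Cr2 higher by 2-fold or more under each setting tried. Changing the filters on background, brightness or flagged spots could not alter these values. Means over probes could not alter that of C2, which had 1 probe.

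**Figure D5:**
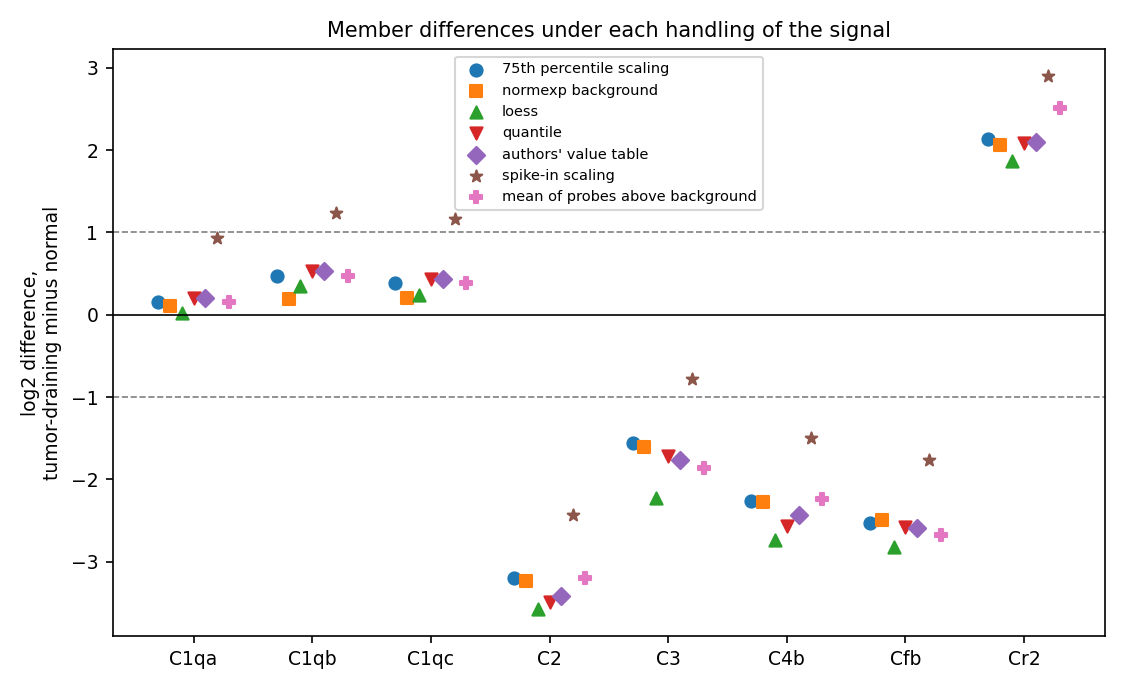
Log2 difference, tumor-draining minus normal, of the 8 members above background on both arrays under 7 ways of handling the signal, with dashed lines at 2-fold. The C2 values lie between -3.58 and -2.43, those of Cr2 between 1.87 and 2.90, and the spike-in scaling moves C3 to -0.78.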

How the data were processed

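Each group has 1 sample, by the labels. The deposited scanner files hold background-subtracted spot intensities from Agilent Feature Extraction 12.0.3.1 (protocol GE1_1200_Jun14, probe positions on mm9), per the file headers. Feature Extraction 10.7 and limma are named in the submitters' processing notes. The value table deposited by the authors is in log2 units, with medians of 4.86 (tumor-draining) and 4.85 (normal). Its columns correlated with the log2 processed signals over probes (r = 0.9999), so it follows log2 signals with no centering by gene. Its normalization is not stated, and it served as an alternative only.

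The log2 processed signal was reduced by each array's 75th percentile over 59305 non-control spots (358 on the tumor-draining array and 374 on the normal array). Spots flagged as non-uniform or as outliers were dropped only where the same probe had unflagged spots. Only probes printed more than once could lose a spot in this way, and a probe with no unflagged spot kept its flagged value. Remaining spots were averaged per probe, and each gene took the value of its brightest probe. Keeping all flagged spots left the member differences and the counts over all genes (3532 lower and 2453 higher) the same. A probe was above background if the software marked 50% or more of its spots so, which held for 35572 probes on the tumor-draining array and 36785 on the normal array, of 56605. Genes above background on 1 array only get a bound, set against the lowest signal above background on the other array or the dim value itself, whichever was higher. Probes were named through RefSeq accessions in a GRCm38.p6 table (32994), by current symbol (10224), by synonym (520) or as in the files (12867). The number of arrays limits the precision.

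The members and lists were chosen with earlier results of these data known. Named genes are all members and the other listed complement genes, Ptprc, Pdpn, Pecam1 and the 2 highest and 2 lowest of 4 marker lists. Fcgr1, Cd163, Ccr7, Siglech, Flt3, Mfge8, Col1a1, Des and the neighbors of members on the chromosome were named after their values were seen. Some genes that the rule names are left out of the lists and not reported here. No genes with a like pattern are named, since 2 arrays give 1 difference per gene. Alternatives were normexp (offset 50), loess (span 0.3) and quantile normalization, scaling to spike-ins or the median, no background filter, brighter genes only, means over probes, flagged spots kept, means over list members and the authors' table. The gene step was also run on simulated data, with planted differences beyond 2-fold and noise below the SD between probes seen here. That run checks the code and not the precision of these arrays. Python 3.11.15, numpy 2.4.6, pandas 2.3.3, matplotlib 3.10.9, R 4.3.3 and limma 3.58.1 were used.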

Additional observations from a re-analysis of the deposited data

How the results depend on the processing

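The 4 lower members stayed at 4, or 3 with spike-in scaling, and no member called at 2-fold changed sign under any setting tried. The members at least 2-fold higher were 3 with spike-in scaling and 2 without the background filter, which lets in C3ar1, against 1. The C1q median was 1.16 with spike-in scaling, and the component median was -1.63 with spike-in scaling and -2.78 after loess. Spike-in scaling moves the median of all genes to 0.89, and loess to -0.07. The 33 other complement genes had 10 lower with spike-in scaling. Among brighter genes only 20 of them were measured, with 10 lower, and the C1q chains have no value there. The other complement genes had 6 higher with spike-in scaling and 1 with normexp, loess or brighter genes only. Among marker genes, spike-in scaling left 9 of 10 blood endothelial, 4 of 5 lymphatic endothelial, 6 of 8 mural and 4 of 7 follicular dendritic cell markers lower, and put all 9 B cell and all 10 T cell markers on the higher side. Over all genes, 1883 were lower and 9735 higher with spike-in scaling, 5344 lower and 4138 higher without the background filter, and 1598 lower and 1098 higher among brighter genes. Normexp gave 1374 higher. The main counts were 3532 lower and 2453 higher. The causes were not tested, apart from fewer genes measured among brighter genes and more without the filter. No paired analysis was possible because each group has 1 array. Signal over background limits the C1q chains, C3ar1, C7, C8g, Cd59b, C5ar1, Colec11 and Csmd1. The sources used here do not say how much spike-in RNA each sample received.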

Other observations

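C2, Cfb, C4b and C4a lie in 1 stretch of mouse chromosome 17, the class III region of the major histocompatibility complex, between genes of unrelated function. Of 7 genes that are no members and had a probe within 50 kb of the C2, Cfb or C4b probe, 2 were lower by 2-fold or more, beside 15.9% of all genes, and 5 within 2-fold, with a median log2 difference of -0.21. The lower ones were C4a, 7.99-fold lower, whose probe also lists C4b accessions and cannot be assigned to C4a alone, and Tnxb, tenascin-X, a matrix glycoprotein next to C4b, which had 1373 on the tumor-draining array and 6297 on the normal array (-2.14). Nelfe, a subunit of a transcription pausing factor next to Cfb, had 604 on the tumor-draining array and 608 on the normal array (0.05). Skiv2l, an RNA helicase, had a difference of 0.43, Dxo, a decapping enzyme, -0.20, Stk19 -0.21 and Zbtb12 -0.23. The window was chosen after the values of the members had been seen.

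Near C3 on the same chromosome, Tnfsf14, the cytokine LIGHT, made by T cells and myeloid cells, had 128 on the tumor-draining array and 59.1 on the normal array (1.18), and Gpr108 differed by -0.16. Cr1l, the neighbor of Cr2 on chromosome 1, differed by -0.47 (with its probes from -1.21 to -0.47) where Cr2 differed by 2.13.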
